A study of Mus musculus with 37 samples.

Results

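The clustered protocadherins are the alpha, beta and gamma genes that lie one after the other on mouse chromosome 18. The members were taken by symbol (Pcdha and Pcdhac, Pcdhb, and Pcdhga, Pcdhgb and Pcdhgc followed by a number), which gave 57 of the 35591 rows of the deposited count table, with 14 alpha, 22 beta and 21 gamma rows. The data are polyA RNA-seq of tailbuds dissected from 37 E8-8.5 embryos that had 6 to 11 somites, 1 library per embryo, all C57BL/6/Cast F1. The control embryos carried Smchd1[fl/+] and are called Smchd1 wt here (21 embryos, 13 female and 8 male). The Smchd1 matdel embryos carried Smchd1[del/+] (16 embryos, 11 female and 5 male): MMTV-Cre had deleted Smchd1 in the mother's oocytes, so that the embryo lacked the maternal SMCHD1 protein and kept a paternal copy of the gene. Each somite number held 3 or 4 Smchd1 wt and 2 to 4 Smchd1 matdel embryos, and the study compared the genotypes at matched somite number. Sex was not matched at each somite number. At 8 somites 1 female and 2 males in Smchd1 wt stood against 2 females in Smchd1 matdel embryos. At 9 somites 2 females and 1 male stood against 2 females. At 10 somites 3 females and 1 male stood against 1 female and 2 males.

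Clustered protocadherins are cell adhesion proteins that bind identical copies of themselves on a neighbouring cell, and they are best known for giving each neuron its own surface identity. An alpha or gamma transcript joins a variable first exon, chosen from a row of alternative promoters, to constant exons that all members of the cluster share, whereas each beta gene is a single exon with no constant part. The C-type members at the end of the alpha and gamma clusters are known for a more uniform use among neurons than the alternate members. SMCHD1 is a chromatin protein of the SMC family, and the clustered protocadherins are among the autosomal loci known to depend on it in other tissues.

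In the tailbud the constant exons of the gamma cluster gave most of the signal, the alpha cluster gave little and the beta genes lay close to the detection limit. Neither genotype nor somite number moved any of the 3 clusters past the threshold in edgeR's quasi-likelihood test with Benjamini-Hochberg adjustment over all genes. The values nearest to it were a higher sum of the beta genes in Smchd1 matdel embryos and a lower alpha at later somite numbers in Smchd1 wt embryos, and neither passed over all genes.

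Total counts per library ranged from 917249 to 80666472, with medians of 11973383 in Smchd1 wt and 14229987 in Smchd1 matdel embryos, and 2 libraries were under 5000000. In 2 Smchd1 matdel libraries at 6 somites (replicates 1 and 2) ribosomal RNA took 2.77% and 1.82% of the counts, against 0.176 to 1.28% in the others. Smchd1 itself averaged 149 CPM (SD 22.3, n = 21) in Smchd1 wt against 88.6 CPM (SD 13.3, n = 16) in Smchd1 matdel embryos, a log2 change of -0.74 (SE 0.074, adjusted p = 1.23e-07, edgeR). Its ranges met only at their edges, from 105 to 202 CPM in Smchd1 wt and from 64.1 to 113 CPM in Smchd1 matdel embryos. CPM (counts scaled to a library of 1000000) carry a TMM factor here, one that corrects for differences in composition between libraries. Markers of the presomitic mesoderm and tailbud progenitors were present in every Smchd1 wt embryo, at a summed 755 to 2016 CPM. In whole tailbuds, fewer cells of a type and less RNA per cell cannot be told apart.

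The alpha members span chr18:36930184-37187661 (GRCm38, plus strand), the beta members chr18:37264938-37524479 and the gamma members chr18:37661793-37841873. The constant exons of the alpha cluster form 3 blocks of 2860 bases in all between 37156155 and 37187657. Those of the gamma cluster form 3 blocks of 2116 bases between 37825021 and 37841870. The beta genes are each annotated as 1 exon block.

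The alpha and gamma entries were not separate measurements, because a read in a constant exon had been counted for every member of its cluster. Over the 37 libraries the alpha totals ran from 1701 counts for Pcdha7 to 1737 for Pcdhac1, with Pcdhac2 alone above them at 2805. The gamma totals ran from 47844 for Pcdhga6 to 49564 for Pcdhga11, with Pcdhgc3 alone above them at 74830. In 9 libraries all alpha entries other than Pcdhac2 held the same count. The alpha and the gamma cluster were therefore each read as 1 measure, the mean over its members, and the beta genes were summed. The symbol Pcdha11 stood on 2 alpha entries with different start positions, 37005203 and 37010712, which were both kept.

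**Figure D1:**
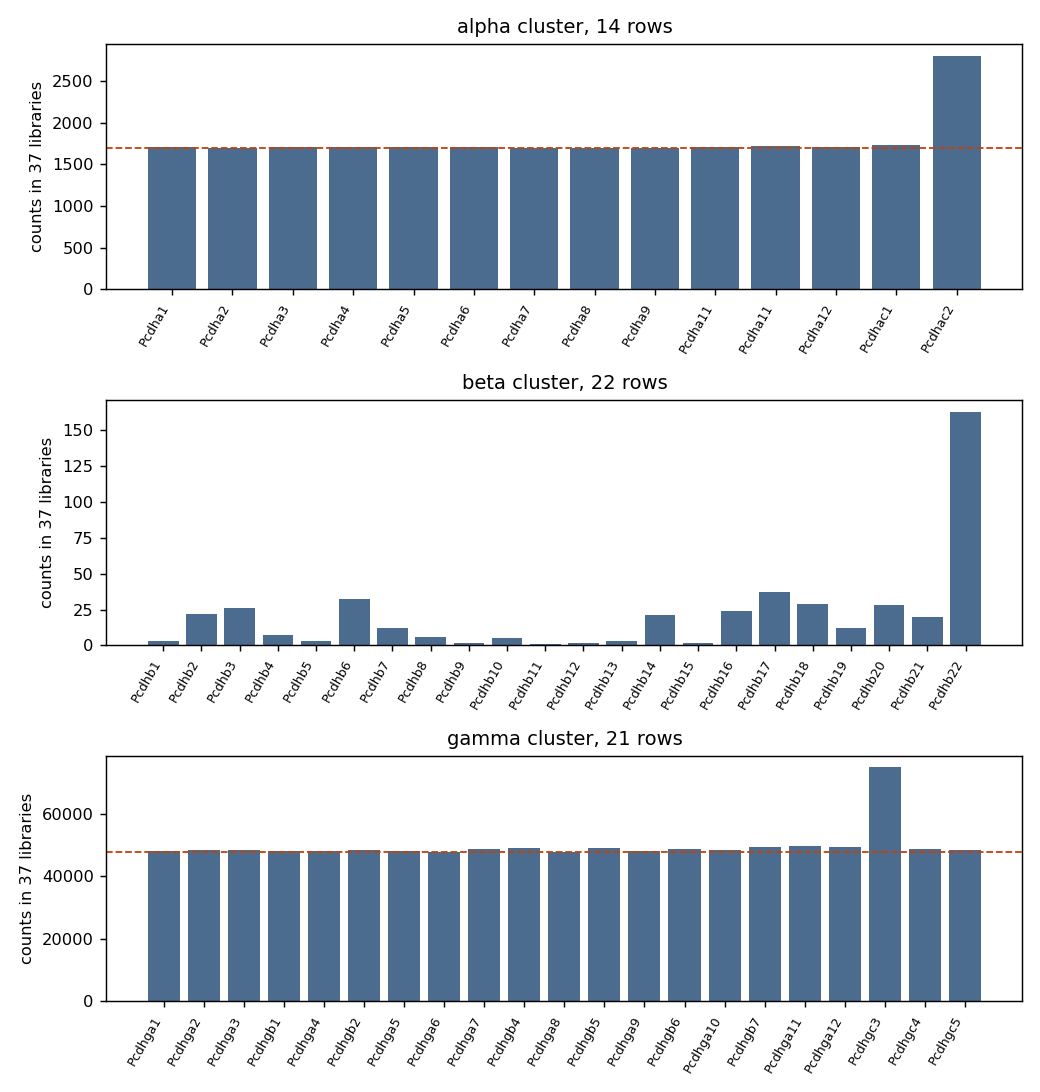
Counts summed over the 37 libraries (vertical axis) for each entry of the alpha, beta and gamma clusters (horizontal axis, in chromosome order), with the lowest total of the alpha and gamma clusters as a dashed line. Pcdhac2 at 2805 and Pcdhgc3 at 74830 stand above otherwise level clusters, and Pcdhb22 at 163 above the other beta genes.

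What a member's variable exon added was read as its excess over the member with the lowest total. In the alpha cluster, Pcdhac2 had an excess of 1104 counts, 64.9% of the lowest total, and took 89.6% of the excess of all members. The 12 entries for alternate alpha members had excesses of at most 26 counts and 92 counts together. In the gamma cluster, Pcdhgc3 had an excess of 26986 counts, 56.4% of the lowest total and 65.7% of the excess of all members. The 12 gamma-A members added 7141 counts together and the 6 gamma-B members 5518, and no single one exceeded 3.6% of the lowest total. Among the variable exons, those of Pcdhac2 and Pcdhgc3 thus held most of the excess, for gamma with the reservation that follows. This was not a trait of all C-type members. Pcdhac1 had an excess of 36 counts (2.1% of the lowest total of its cluster), Pcdhgc4 of 1006 (2.1%) and Pcdhgc5 of 437 (0.9%).

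Part of the Pcdhgc3 excess could not be assigned. BC037039, an antisense transcript with 16882 counts, overlaps 1559 bases of the Pcdhgc3 variable exon, and the sources do not say that its reads were told apart by strand. At least 10104 counts of the Pcdhgc3 excess exceeded the whole count of BC037039. With that whole count set aside, Pcdhgc3 would not hold most of the gamma excess, which was 41088 counts over all members. Further transcripts that run through the clusters, Gm42416, Gm37013, Gm37388 and Gm38182, share bases with the gamma constant exons, and Gm26672 overlaps the variable exons of Pcdhga10, Pcdhgb7, Pcdhga11 and Pcdhga12.

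Per kilobase of exon, the order of the levels was gamma, then alpha, then beta. The gamma constant exons were at 40.6 ± 3.8 CPM per kilobase (SD, n = 37) and the alpha constant exons at 1.09 ± 0.347 CPM per kilobase. Each value is the whole count of the lowest member over the length of the constant exons. Reads in that member's variable exon are therefore included, and for gamma those of transcripts that share the constant exons may be. The private exon sequence of Pcdhgc3 was at 14 ± 2.25 CPM per kilobase and that of Pcdhac2 at 0.656 ± 0.391 CPM per kilobase. The spreads of the 2 gamma values did not meet those of the alpha values, whereas the constant part of alpha and the Pcdhac2 exon overlapped within 1 SD of each other. All 22 beta genes together came to 0.173 CPM per kilobase when their levels were added, and the highest of them, Pcdhb22, to 0.0474 CPM per kilobase.

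The beta genes were detected in fragments. They held 460 counts in 37 libraries, and 81.4% of the 814 combinations of gene and library held a 0. An embryo had a count for 0 to 11 of the 22 genes, with a median of 4. The library with 11 detected genes, Smchd1 matdel replicate 4 at 6 somites, held 21105014 counts, while the deepest one, Smchd1 wt replicate 1 at 9 somites, held 80666472 counts and showed 6 beta genes.

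Pcdhb22, the last gene of the row, took 163 counts (35.4%) and was the only beta gene with a count in more embryos than not (27 of 37). It shares 455 annotated bases with Pcdhb21, so reads there could belong to either gene. Pcdhb17 followed with 37 counts, of which 40.5% came from 1 embryo, Smchd1 wt replicate 1 at 11 somites. Pcdhb6 held 32 counts, Pcdhb18 29, Pcdhb20 28, Pcdhb3 26, Pcdhb16 24, Pcdhb2 22, Pcdhb14 21 and Pcdhb21 20. None of these 10 genes with at least 20 counts lies in the stretch from Pcdhb7 to Pcdhb13. Of the rest, Pcdhb7 and Pcdhb19 held 12 counts each, Pcdhb4 7, Pcdhb8 6 and Pcdhb10 5. Pcdhb1, Pcdhb5 and Pcdhb13 held 3 each, Pcdhb9, Pcdhb12 and Pcdhb15 2 each and Pcdhb11 1. Pcdhb1, Pcdhb9, Pcdhb11, Pcdhb12 and Pcdhb13 were each seen in a single library.

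No beta gene passed the filter on low counts by itself. With the filter lifted, none of the 22 passed for genotype over all stages in edgeR (smallest adjusted p = 0.842), and 4 had an unadjusted p under 0.05: Pcdhb3, Pcdhb6, Pcdhb7 and Pcdhb16, all with positive values from 1.64 to 2.23 on the log2 scale. With the filter, 5.78% of 15941 genes had such a p, and the share without it was not taken. A single Smchd1 matdel library gave 34.6% of the Pcdhb3, 25% of the Pcdhb6, 33.3% of the Pcdhb7 and 20.8% of the Pcdhb16 counts. By mean CPM, 15 of the 22 beta genes were higher in Smchd1 matdel and 7 in Smchd1 wt embryos, and among the 10 genes with at least 20 counts 8 were higher in Smchd1 matdel embryos. Of those 8, Pcdhb2 (0.0354 CPM in Smchd1 wt against 0.0375), Pcdhb17 (0.0654 against 0.0670) and Pcdhb18 (0.0443 against 0.0447) were nearly level. Among all 22, 8 genes held 5 or fewer counts, so a single embryo can set their direction. The share of all genes, or of genes with so few counts, that were higher in Smchd1 matdel embryos was not taken. The count of directions is thus a description only. Pcdhb22 was at 0.221 ± 0.262 CPM in Smchd1 wt (n = 21) and 0.435 ± 0.406 CPM in Smchd1 matdel embryos (n = 16), with counts in 14 of 21 and 13 of 16 embryos. Pcdhb6 was at 0.0309 ± 0.0894 CPM with counts in 3 of 21 embryos, against 0.101 ± 0.166 CPM with counts in 7 of 16. Pcdhb20 lay the other way, at 0.0439 ± 0.101 CPM in Smchd1 wt and 0.0174 ± 0.0521 CPM in Smchd1 matdel embryos. In each of these the SD within a genotype was about as large as the difference or larger.

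**Figure D2:**
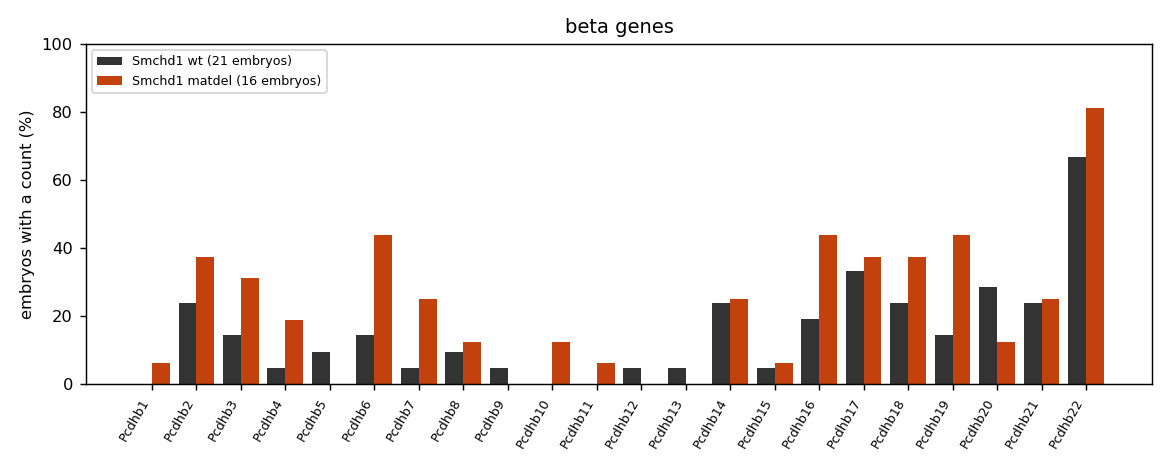
Percent of embryos with at least 1 count (vertical axis, 0 to 100) for each of the 22 beta genes (horizontal axis), for 21 Smchd1 wt and 16 Smchd1 matdel embryos. Pcdhb22 was seen in 14 of 21 and 13 of 16 embryos, and the genes between Pcdhb8 and Pcdhb13 in at most 2 embryos of either genotype.

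The first comparison asked whether the clusters differed between the genotypes. Smchd1 matdel embryos lacked maternal SMCHD1 and also carried a deleted copy of the gene themselves. No tailbud here carried that copy without the deletion in the oocyte, so these cannot be told apart. Summed beta genes were at 0.624 ± 0.371 CPM in Smchd1 wt embryos (lowest 0, median 0.481, highest 1.34, n = 21) and 1.10 ± 0.660 CPM in Smchd1 matdel embryos (lowest 0, median 1.04, highest 2.19, n = 16). The ranges overlapped, and in 13 of the 16 Smchd1 matdel embryos the sum exceeded the mean of the Smchd1 wt embryos with as many somites. With somite number and sex in the fit, the log2 change was 0.84 (SE 0.299), which did not pass the adjustment over 15941 genes (adjusted p = 0.860, edgeR).

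For that comparison 2 of the 15941 genes passed, 0.0125% of those tested, and 922 genes (5.78%) had an unadjusted p under 0.05, the beta sum among them. A permutation of genotype within somite number on log2 CPM, with 100000 resamples and without sex, gave a difference of 0.67 and a two-sided p = 0.0475 for beta, not adjusted for the 3 clusters. The same permutation gave -0.37 (p = 0.149) for alpha, a larger difference than in the edgeR fit, and -0.040 (p = 0.359) for gamma. Without Pcdhb22 the beta change was 0.82 (SE 0.344, adjusted p = 0.860, edgeR), so it did not rest on that gene. Pooled over libraries, the beta genes were at 0.640 CPM in Smchd1 wt (204 counts, exact 95% Poisson interval 0.555 to 0.734) and 1.15 CPM in Smchd1 matdel embryos (256 counts, 1.01 to 1.29). These intervals cover counting error only and not the spread between embryos. Over all stages markers of somites moved the same way: 4 of 5 tested had an unadjusted p under 0.05 for genotype in edgeR, none of them past the adjustment, and their median log2 change was 0.64 against -0.00079 for all genes. By window they did not move alike. The somite median was 1.24 at 6 to 8 and 0.00093 at 9 to 11 somites, where beta changed by 0.75 and 1.07. The neural markers had a median of 0.17, with 4 of 22 at an unadjusted p under 0.05. The part of cell make-up in the beta value was not tested.

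The beta difference was in the same direction at all 6 somite numbers by mean CPM, and the groups separated at 1 of them. At 8 and 9 somites, with 2 Smchd1 matdel embryos each, the direction rested on 1 embryo: without Smchd1 matdel replicate 2 the log2 change was -0.45 at 8 and -1.13 at 9 somites, and without Smchd1 wt replicate 1 it was -0.033 at 9 somites. At 10 somites the Smchd1 wt embryos had 0, 0.384, 0.422 and 0.886 CPM and the Smchd1 matdel embryos 1.02, 1.58 and 2.19 CPM. Every Smchd1 matdel embryo lay above every Smchd1 wt embryo there, with a log2 change of 1.78 (SE 0.658) and an adjusted p of 1.0 in edgeR. The share of all genes whose genotypes separate among so few embryos was not taken, so the separation does not set beta apart. Sex was uneven there, with 3 females and 1 male in Smchd1 wt against 1 female and 2 males, and that fit held no sex term. At 10 somites 0 of 15016 genes passed the adjustment (0.0%) and 84 (0.559%), the beta sum among them, had an unadjusted p under 0.05. At 7 somites the levels were lowest and closest, with 0, 0.328, 0.382 and 0.754 CPM in Smchd1 wt and 0.415, 0.533 and 0.700 CPM in Smchd1 matdel embryos.

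At 6 somites the Smchd1 wt embryos had 0.413, 0.481, 0.648 and 1.09 CPM, and the Smchd1 matdel embryos 0, 0.730, 1.52 and 1.83 CPM. The 0 there came from the shallowest library, in which 3 counts would be 3.28 CPM, so it does not set an upper limit below the other embryos. The 2 Smchd1 wt embryos without a beta count allow up to 0.523 CPM (7 somites) and 0.359 CPM (10 somites). By window, the beta sum changed by 0.75 on the log2 scale in the younger embryos with 6 to 8 somites (SE 0.439, adjusted p = 0.698, edgeR). In the older ones, with 9 to 11 somites, the value was 1.07 (SE 0.43, adjusted p = 1.0, edgeR). At 6 to 8 somites 1 of 15621 genes passed (0.0064%) and at 9 to 11 somites 1 of 15739 (0.00635%).

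Alpha was at 3.48 ± 0.983 CPM in Smchd1 wt embryos (lowest 2.11, median 3.18, highest 5.54) and 2.98 ± 1.09 CPM in Smchd1 matdel embryos (lowest 0, median 3.03, highest 4.72). The ranges lay over each other, and the log2 change was -0.15 (SE 0.137, adjusted p = 0.909, edgeR). The embryo at 0 is the shallowest library again. For the younger window (6 to 8 somites) it was -0.39 (SE 0.225, adjusted p = 0.691, edgeR). For the older window (9 to 11 somites) it was 0.053 (SE 0.159, adjusted p = 1.0, edgeR).

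Gamma was at 90.7 ± 9.78 CPM in Smchd1 wt embryos (lowest 68.7, median 91.8, highest 107) and 87.6 ± 5.76 CPM in Smchd1 matdel embryos (lowest 75.5, median 88.0, highest 97.0). Gamma had the counts to show a small change, with 84 to 8469 counts per library, and the log2 change was -0.045 with an SE of 0.044 (adjusted p = 0.915, edgeR). At 9 somites the Smchd1 wt embryos, at 98.9, 103 and 107 CPM, lay above both Smchd1 matdel embryos, at 84.3 and 94.0 CPM. That difference of -0.21 on the log2 scale (SE 0.142) had an adjusted p of 1.0, with 0 of 15162 genes passing (0.0%) and 172 (1.13%) at an unadjusted p under 0.05 in edgeR. The share of all genes whose genotypes separate at 9 somites was not taken either. The Smchd1 wt embryo at 103 CPM is male and the others at 9 somites are female, and that fit held no sex term. At the other 5 somite numbers the genotypes overlapped, at 10 somites through 1 embryo: Smchd1 wt embryos were at 68.7, 98.0, 100 and 103 CPM and Smchd1 matdel embryos at 81.3, 90.4 and 97.0 CPM. By window, the gamma change was 0.034 (SE 0.0568, adjusted p = 0.921) at 6 to 8 somites. In embryos with 9 to 11 somites it was -0.095 (SE 0.0747, adjusted p = 1.0, edgeR), and -0.16 without Smchd1 wt replicate 1 at 10 somites, still short of the threshold.

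**Figure D3:**
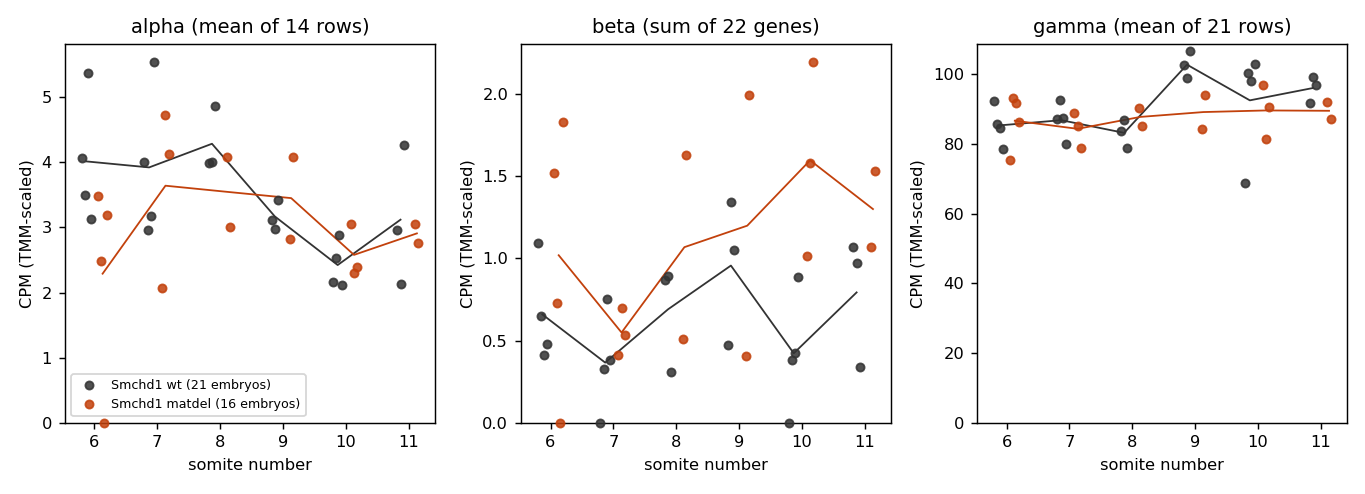
TMM-scaled CPM (vertical axes, from 0) against somite number (horizontal axes) for alpha, beta and gamma, 1 point per embryo, with lines through the means of 21 Smchd1 wt and 16 Smchd1 matdel embryos. Alpha in Smchd1 wt is highest up to 8 somites, beta at 10 somites separates the genotypes, and gamma holds 1 low Smchd1 wt embryo, at 68.7 CPM and 10 somites.

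The second comparison asked how the clusters moved as somites formed. In Smchd1 wt embryos alpha went from 3.97 ± 1.0 CPM at 6 to 7 somites (n = 8) to 3.73 ± 0.703 CPM at 8 to 9 (n = 6) and 2.72 ± 0.767 CPM at 10 to 11 somites (n = 7). The slope was -0.13 on the log2 scale per somite (SE 0.0457), and it missed the threshold over 14814 genes (adjusted p = 0.0903, edgeR). Of those genes 853 passed (5.76%), 410 of them falling (2.77%), and 20.5%, alpha and gamma among them, had an unadjusted p under 0.05. Without Smchd1 wt replicate 3 at 11 somites, which had the highest alpha of its stage (4.26 CPM against 2.13 and 2.97), the slope was -0.17 and passed (adjusted p = 0.0347, edgeR).

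Gamma in Smchd1 wt embryos went from 86.0 ± 5.06 CPM at 6 to 7 somites to 92.9 ± 11.3 CPM at 8 to 9 and 94.0 ± 11.7 CPM at 10 to 11 somites. The slope was 0.040 per somite (SE 0.019, adjusted p = 0.237, edgeR). Smchd1 wt replicate 1 at 10 somites, at 68.7 CPM, bore on this value: without it the slope was 0.051 and passed (adjusted p = 0.0274, edgeR). In the 13 females alone the slope was 0.057 and passed too (adjusted p = 0.0414, edgeR). The embryo at 68.7 CPM is male, so the fit in females also left it out and is not a separate result. More genes passed in females than in all Smchd1 wt embryos. That embryo had the lowest summed level of the 21 Smchd1 wt embryos for the neural (446 CPM) and the presomitic mesoderm and tailbud progenitor markers (755 CPM) and the highest for the erythroid (4012 CPM) and endothelial markers (425 CPM). It was also lowest for the notochord markers (15.1 CPM) and, of the lists given below, for regulators of the clusters (4249 CPM), partners and effectors (3114 CPM) and nonclustered protocadherins (147 CPM). Counted from the lowest, it was 20th for endoderm (3718 CPM) and 18th for somite markers (28.3 CPM). The part of its make-up in the gamma value was not tested. Beta in Smchd1 wt embryos had a slope of 0.053 (SE 0.114, adjusted p = 0.842, edgeR), smaller than its error, and between 0.010 and 0.12 with single embryos left out.

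With each member on its own line, the filter kept 14 alpha, 21 gamma and no beta entries. All 14 alpha slopes in Smchd1 wt embryos were negative (-0.15 to -0.13 per somite) and all 21 gamma slopes positive (0.034 to 0.052), which repeats 1 shared signal per cluster. Pcdhac1 was the single entry to pass, with a slope of -0.15 (adjusted p = 0.0405, edgeR), where 855 of 14846 genes (5.76%) passed. Counts of Pcdhac1 differed from those of the lowest alpha member by 36 over all libraries, so this call and the missed call of the alpha mean are hardly separate results.

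In Smchd1 matdel embryos none of the clusters had a slope past the threshold. The alpha slope was -0.027 per somite (SE 0.0726, adjusted p = 0.888), the beta slope 0.12 (SE 0.113, adjusted p = 0.608) and the gamma slope 0.018 (SE 0.0160, adjusted p = 0.573) in edgeR. Alpha was at 2.87 ± 1.56 CPM at 6 to 7 somites (n = 7), the embryo at 0 included, 3.50 ± 0.674 CPM at 8 to 9 (n = 4) and 2.71 ± 0.357 CPM at 10 to 11 somites (n = 5). Beta was at 0.818 ± 0.639, 1.13 ± 0.797 and 1.48 ± 0.477 CPM in the same windows, against 0.513 ± 0.325, 0.823 ± 0.379 and 0.581 ± 0.397 CPM in Smchd1 wt embryos. In this genotype 640 of 15224 genes passed (4.2%).

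The difference between the slopes was tested itself and was not established for any cluster. It was 0.10 per somite for alpha (SE 0.0818), 0.088 for beta (SE 0.17) and -0.021 for gamma (SE 0.0255), each with an adjusted p of 1.0 in edgeR. In that test 0 of 15941 genes passed (0.0%) and 624 (3.91%) had an unadjusted p under 0.05. A steeper fall of alpha in Smchd1 wt than in Smchd1 matdel embryos was thus not shown.

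**Figure D4:**
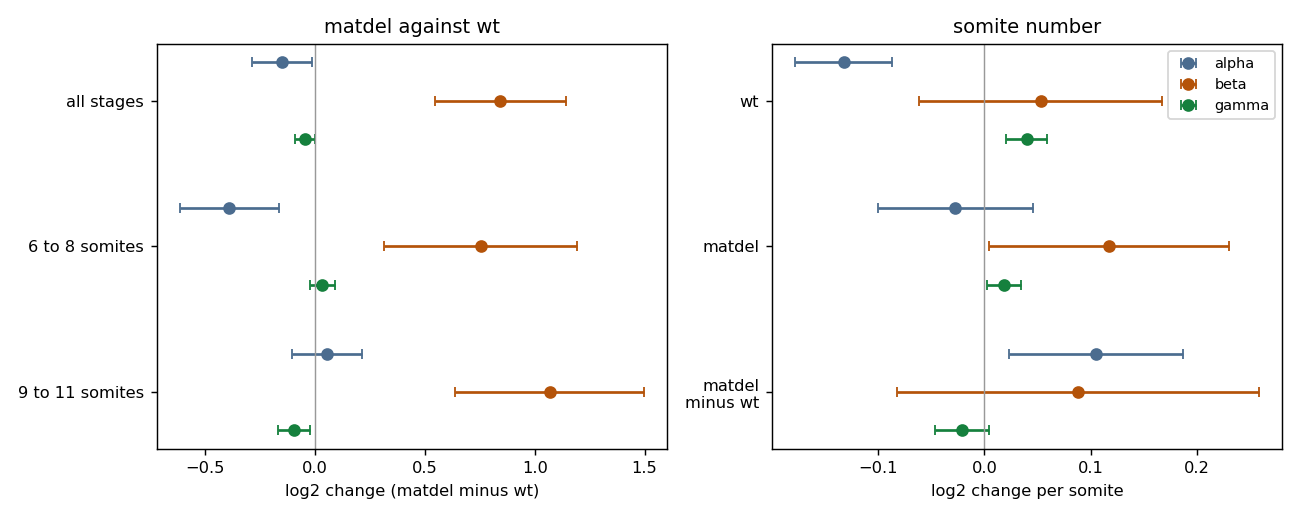
Log2 change of alpha, beta and gamma with its SE as bars: left, Smchd1 matdel minus Smchd1 wt over all stages and in the 2 windows, right, the change per somite in each genotype and the difference of the slopes. The beta sum lies above 0 in all 3 genotype comparisons, at 0.84, 0.75 and 1.07, with wide errors, and gamma close to 0 with narrow ones.

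Alpha was also set against gamma within each library, a ratio that needs no scaling between libraries and that was added after the slopes had been seen, so its p-values restate those slopes and do not bear them out independently. In Smchd1 wt embryos the alpha count was 4.65 ± 1.31% of the gamma count at 6 to 7 somites, 4.13 ± 1.27% at 8 to 9 and 2.92 ± 0.799% at 10 to 11 somites. It fell by 0.437 percentage points per somite, with Pearson r = -0.58 (permutation p = 0.00583, adjusted p = 0.0350) and Spearman rho = -0.61 (permutation p = 0.00456, adjusted p = 0.0274) over 21 embryos, adjusted over 6 such relations. Without the 3 embryos at 11 somites, the stage farthest from the median, r was -0.61. It was -0.62 in the 13 females and -0.47 in the 8 males.

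In Smchd1 matdel embryos the same ratio had r = -0.027 (permutation p = 0.923) and rho = -0.16 (permutation p = 0.558) over 16 embryos, and r = -0.37 without the library under 5000000 counts, whose alpha count was 0. The ratio was 3.44 ± 1.95% at 6 to 7 somites, 3.94 ± 0.579% at 8 to 9 and 3.02 ± 0.280% at 10 to 11 somites, so the genotypes lay closest at the last stages. Whether the relation differs between genotypes was not tested on the ratio.

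The Pcdhgc3 excess was likewise taken relative to the lowest gamma member of its library. It was 52.8 ± 8.05% in Smchd1 wt embryos at 6 to 7 somites, 60.2 ± 3.65% at 8 to 9 and 57.4 ± 6.42% at 10 to 11 somites. In Smchd1 matdel embryos it was 49.0 ± 8.36%, 58.0 ± 3.84% and 57.2 ± 3.50%. Against somite number r was 0.32 (permutation p = 0.157, adjusted p = 0.280) in 21 Smchd1 wt and 0.54 (permutation p = 0.0266, adjusted p = 0.0798) in 16 Smchd1 matdel embryos, neither past the adjustment. As a gene of its own, the Pcdhgc3 excess had slopes of 0.074 in both genotypes (adjusted p = 0.104 in Smchd1 wt and 0.103 in Smchd1 matdel, edgeR). BC037039, which overlaps this exon, had slopes of 0.070 in Smchd1 wt (adjusted p = 0.143) and 0.060 in Smchd1 matdel embryos (adjusted p = 0.216, edgeR).

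The Pcdhac2 excess was too small for such a reading, with at most 201 counts in a library. It was 61.7 ± 15.8% of the lowest alpha member in Smchd1 wt embryos (n = 21) and ranged from 21.2 to 220% in the 15 Smchd1 matdel embryos with an alpha count. Its relation to somite number had r = -0.030 (permutation p = 0.897) and r = -0.36 (permutation p = 0.187).

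**Figure D5:**
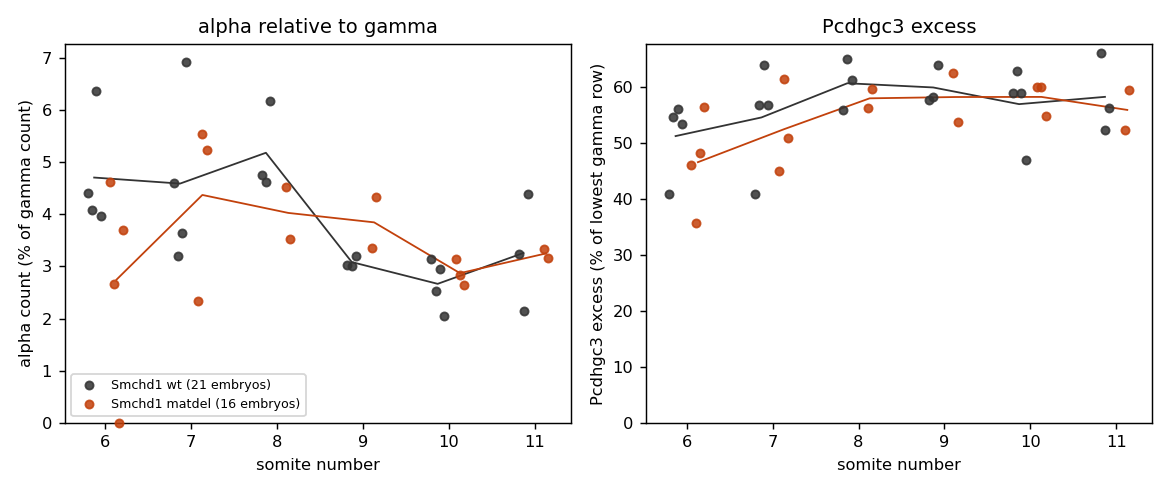
Left, the alpha count as a percent of the gamma count, and right, the Pcdhgc3 excess as a percent of the lowest gamma member (vertical axes, from 0), against somite number, 1 point per embryo with lines through the group means. The left ratio in Smchd1 wt goes from 4.65% at 6 to 7 somites to 2.92% at 10 to 11 somites.

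The genes around and between the clusters were read next. Of 19 neighbours that passed the filter, none passed for genotype over all stages (0.0125% of all genes did). The neighbours were not all separate measurements. Gm37013 and Gm37388 held the same 1921 counts and gave equal fits. These genes and Gm42416, Gm38182, BC037039, Gm26672 and Gm37165 share exon bases with gamma members, so their counts can hold the cluster's own reads. On the alpha side Wdr55, Dnd1, Hars and Hars2 (histidyl-tRNA synthetases) and Zmat2 had log2 genotype changes from -0.087 to 0.052. On the gamma side Diaph1, a formin that nucleates actin, fell with somite number in Smchd1 wt embryos by 0.065 per somite (SE 0.0176, adjusted p = 0.0286, edgeR). Its slope in Smchd1 matdel embryos was -0.020 (adjusted p = 0.585), and it was the 1 of 18 tested neighbours to pass in Smchd1 wt, a share near the 5.76% of all genes.

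Hdac3, the histone deacetylase beyond Diaph1, was at 96.2 CPM with a genotype change of 0.018, and Rell2, Fchsd1 and Arap3 did not pass in either comparison. Between the beta and gamma genes, Taf7, a subunit of the general transcription factor TFIID, was at 92.2 ± 12.4 CPM with a genotype change of -0.045 (adjusted p = 0.942, edgeR). Slc25a2, a mitochondrial ornithine carrier next to it, held 90 counts in all libraries and did not pass the filter. Gm37165, an antisense transcript within the gamma cluster, held 235 counts and had a genotype change of -0.76 (adjusted p = 0.860, edgeR).

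Genes known to act on or with the clusters were counted against the 5.76% of all genes that passed in the Smchd1 wt slope. Of 28 regulators, which included CTCF, the cohesin subunits, DNA methyltransferases and REST, Smchd1 was the 1 gene to pass for genotype over all stages. In the slope of Smchd1 wt embryos 1 of 27 rose and 1 fell. Dnmt3b, a de novo DNA methyltransferase, fell by 0.10 per somite (adjusted p = 0.00343), and Dnmt3a, its relative, rose by 0.060 (adjusted p = 0.0395, edgeR). Ctcf, which binds protocadherin promoters and their enhancers, was at 237 ± 27.3 CPM in Smchd1 wt and 236 ± 22.8 CPM in Smchd1 matdel embryos. The median slope was 0.0040 for the list and -0.0015 for all genes.

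Of the 12 nonclustered protocadherins, which have genes of their own elsewhere, 7 were tested in Smchd1 wt embryos, where none rose and 2 fell. Pcdh11x fell by 0.39 per somite (adjusted p = 0.000284) and Pcdh1 by 0.11 (adjusted p = 0.00828, edgeR). The median slope of the list was -0.063, and none of 9 passed for genotype, with a median of 0.15 against -0.00079 for all genes. Of 25 tested partners and effectors, the list of proteins that bind protocadherins or act after them, 1 rose and 3 fell with somite number in Smchd1 wt embryos and none passed for genotype. Marcks, a kinase C substrate, rose by 0.11 (adjusted p = 0.0299). Cyfip2, a subunit of the WAVE actin regulatory complex, fell by 0.30 (adjusted p = 3.77e-05), Cdh1 (E-cadherin) by 0.14 (adjusted p = 0.0218) and Pik3r1, a PI3 kinase subunit, by 0.076 (adjusted p = 0.0382, edgeR).

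Cell type markers are given because cell make-up could move with the clusters. Of 20 neural genes tested in Smchd1 wt embryos, none rose and 4 fell with somite number, among them the neurofilament genes Nefm (by 0.33, adjusted p = 2.44e-05) and Nefl (by 0.26, adjusted p = 2.52e-05) and the neuronal tubulin Tubb3 (by 0.19, adjusted p = 0.000776, edgeR). The list as a whole did not move that way: its median slope was 0.024 against -0.0015 for all genes, and Pax6 (0.25), Irx5 (0.16), Irx3 (0.13) and Zic2 (0.12), which did not pass, had positive slopes. The summed neural level ran from 653 to 783 CPM at 6 to 7 somites (median 705) and from 446 to 699 CPM at 10 to 11 somites (median 644), and none of its 26 genes was at 0 in every library. Msx1 (mean 208 CPM in Smchd1 wt) and Nkx1-2 (174 CPM) weighed most in this sum, with Ncam1 next at 45.5 CPM. Their slopes were -0.084 and -0.11, so the sum mainly followed these genes and not the list as a whole. The part of neural cells in the alpha slope was not tested.

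Of 13 presomitic mesoderm and tailbud progenitor genes 1 rose, Cyp26a1 (the retinoic acid-degrading enzyme, 0.21 per somite, adjusted p = 0.00262), and none fell. Of 10 endothelial genes 5 rose, led by Emcn (0.71, adjusted p = 8.96e-05), Esam (0.19, adjusted p = 0.00268) and Cdh5 (0.17, adjusted p = 0.00713, edgeR). Of 12 erythroid genes 1 rose, the embryonic globin Hbb-y (0.96 per somite, adjusted p = 0.0105, edgeR), while the summed erythroid level went from 17 to 1512 CPM at 6 to 7 and from 121 to 4012 CPM at 10 to 11 somites.

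Of 13 endoderm genes Foxa1 rose (0.15, adjusted p = 0.0397) and Sox17 fell (by 0.13, adjusted p = 0.0451, edgeR). The median slope of the endoderm list was -0.37 against -0.0015 for all genes. Its summed level ran from 560 to 3415 CPM at 6 to 7 somites (median 1587). At 10 to 11 somites it ran from 95.5 to 3718 CPM (median 313). The part of endoderm cells in the alpha slope was not tested. None of 4 tested somite genes and none of 4 tested notochord genes passed, and the sclerotome gene Pax1 was at 0 in every library. None of these 7 marker lists held a gene past the threshold for genotype over all stages. The summed levels of the genotypes overlapped for each, for the neural list at 446 to 783 CPM in Smchd1 wt (median 665) and 561 to 894 CPM in Smchd1 matdel embryos (median 766). For somite markers the median log2 genotype change was 1.24 at 6 to 8 somites and 0.00093 at 9 to 11 somites. The highest summed somite level, 188 CPM, was in a Smchd1 matdel embryo, against at most 39.8 CPM in Smchd1 wt embryos.

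The genes whose level over the 37 embryos was most like each cluster differed from cluster to cluster. For alpha they were Unc5c (a netrin receptor, Spearman rho = 0.76), Cd44 (the hyaluronan receptor, 0.72), Prdm1 (0.70), Thy1 (0.69) and Wnt9b (0.69). For gamma they were Socs7 (0.78), Ephb3 (an ephrin receptor, 0.75), Pdgfra (a growth factor receptor of mesenchyme, 0.74), Fads1 (0.74) and Frzb (a secreted Wnt antagonist, 0.73). For beta they were Vcan (the proteoglycan versican, 0.68), Pkd1l1 (0.66), Gabrb2 (0.65), Gapvd1 (0.65) and Zfp629 (0.64). These are the highest of 15938 genes and share the scaling and depth of the same libraries. Between the clusters rho was -0.31 for alpha and gamma, -0.090 for alpha and beta and 0.13 for beta and gamma.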

How the data were processed

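PolyA RNA of 37 tailbuds was sequenced, 1 library per embryo. Per the submitters' processing notes, reads were demultiplexed with bcl2fastq, trimmed with Trim Galore 0.4.4 and aligned with HISAT2 2.0.5 to GRCm38.p6. The authors counted reads per gene in SeqMonk and deposited raw gene counts, which are the values used here. The labels name both a stranded and a non-stranded kit without saying which library had which. Columns with log2 values of Hox genes and the authors' own comparisons were not used.

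Of 35591 gene entries 49 repeated an identifier and 48 of these, no members, were dropped, and 27 names turned into dates were restored. Members were matched to GENCODE M21 (GRCm38) by coordinates (57 of 57). The mean count over alpha members (rounded), the sum over beta genes and the mean over gamma members (rounded) replaced the members in the whole table. Library size was the sum of the table.

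Tests used edgeR 4.0.16 (quasi-likelihood, two-sided, TMM, filterByExpr with a minimum count of 10, Benjamini-Hochberg over all genes, threshold 0.05). The genotype fits held sex and somite number (as levels), the single somite numbers without covariates and slopes on somite number as a number, the difference of slopes with sex. Log2 CPM used a prior count of 2. Floors are 3 counts. The tests were checked on simulated data. Labels do not say whether embryos share a litter, so p-values measure the spread between these embryos. Libraries of a group differed by more than sampling noise (chi-square per degree of freedom 5.12 to 72.3). Replicate numbers recur in both genotypes, but of 16 same-numbered pairs 5 had correlated deviations over 0.1 (r from -0.28 to 0.67), so they were not treated as pairs.

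Alternatives were RLE scaling, no filter, DESeq2 1.42.0, another covariate for sex, females only, subsets of libraries, each embryo left out, the lowest or highest member or the excess in place of the mean, and a permutation of genotype. Members and gene lists (regulators of the clusters, nonclustered protocadherins, partners and effectors, and the cell type markers) were chosen with earlier results of these data known. Named were each beta gene, the highest and lowest alpha and gamma members, up to 3 rising and 3 falling genes of a list in the Smchd1 wt slope, any list gene passing for genotype, the 5 genes most like each cluster, neighbouring genes and Smchd1. Pcdhac1 was named because it was the 1 member to pass, and Ctcf, Pax1, Pax6, Irx5, Irx3 and Zic2 after their values were seen. Analyses used R 4.3.3 and scipy.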

Additional observations from a re-analysis of the deposited data

Results flagged for a closer look

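Gamma in Smchd1 wt replicate 1 at 10 somites was 68.7 CPM, far below the other 3 embryos of its group (98.0, 100 and 103 CPM). Its gap to the nearest was 0.861 of the group's whole range, above the critical value for 4 samples. It was the 1 value to stand apart among 23 sets of 4 embryos examined, and chance would give about 1 in 20 of such sets. The same library had no beta count.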

How the results depend on the processing

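All 34 tests of a cluster (genotype over all stages, in windows and at each somite number, and slopes) missed the threshold, and of 780 alternatives 747 kept direction and side. Exceptions past 0.05 were the permutation for beta over all stages (0.67, p = 0.0475), the gamma slope in Smchd1 wt females (0.057) and 2 slopes with an embryo left out. Direction changed, below any threshold, for gamma at 6 to 8 somites with the summed excess (-0.047) or the Pcdhgc3 excess (-0.062), for alpha at 9 to 11 somites with the highest member (-0.053), the Pcdhac2 excess (-0.24) or females (-0.031), for the slope difference of alpha with the Pcdhac2 excess (-0.049) and of gamma with the summed excess (0.028) or the Pcdhgc3 excess (0.0031), and for gamma at 10 somites with sex as a covariate (0.11). The cause of these changes was not tested.

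With the replicate number as a block, no call changed. Direction turned for alpha at 7 somites (0.044) and 11 somites (0.20) and for gamma at 10 somites (0.031), and the beta change over all stages was 0.89. The labels do not say whether the numbers pair the embryos.

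Leaving out each embryo in turn gave ranges of -0.17 to -0.11 for the alpha slope and 0.035 to 0.051 for the gamma slope in Smchd1 wt, and -0.022 to 0.12 for alpha at 9 to 11 somites. In Smchd1 matdel the slopes ranged from -0.053 to -0.0038 for alpha, 0.082 to 0.22 for beta and 0.0097 to 0.025 for gamma, and in Smchd1 wt the beta slope from 0.010 to 0.12. Beta over all stages stayed between 0.76 and 0.95. At single somite numbers, where an arm can fall to 1 embryo that is taken to vary like the others, gamma ranged from -0.018 to 0.081 at 6, -0.082 to 0.0037 at 7 and -0.16 to 0.021 at 10 somites. Alpha ranged from -0.36 to 0.12 at 7, -0.18 to 0.36 at 9, -0.047 to 0.20 at 10 and -0.30 to 0.19 at 11 somites, and beta from -0.45 to 1.21 at 8 and -1.13 to 1.19 at 9 somites. Beta did not pass the filter at 6 and 7 somites, nor did its sum without Pcdhb22 in the Smchd1 wt slope, so these have no value.

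The number of genes passing in the Smchd1 wt slope was 853, and 1775 in females. In Smchd1 matdel it was 640, and 1508 by DESeq2, 174 in females and 372 when both libraries with much ribosomal RNA were left out. For genotype it was 2, and 1 in females. Single alpha entries passing in the Smchd1 wt slope numbered 1, and 2 by DESeq2 and 0 without the filter. Without the filter 2 of 19 tested beta genes passed, Pcdhb6 (-0.78) and Pcdhb17 (0.95), where 1062 of 24117 genes did. Pcdhb6 held 7 counts in Smchd1 wt embryos and Pcdhb17 held 22, of which 15 came from replicate 1 at 11 somites. Depth limits the beta genes most, with a median of 10 counts per library.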
